A study of Mus musculus with 15 samples.

Results

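The genes described here are 8 genes of the transforming growth factor β (TGF-β) and activin pathway, measured in bone-marrow-derived macrophages (BMDMs). They are the ligand genes *Tgfb1* and *Inhba*, the receptor genes *Tgfbr1* and *Tgfbr2*, the signal carrier *Smad3*, the inhibitors *Smad7* and *Skil*, and *Tgfbi*, the gene of a secreted matrix protein that was named for its induction by TGF-β. They were chosen by name, with earlier results of these data known. All 8 were found among the 51763 Ensembl rows of the count table by their mouse symbols on GRCm38. The filter on low counts was passed by 16919 rows and by all 8 genes. *Tgfbi* was listed because its normalized counts had been seen to peak after disulfide HMGB1, so its values are a description with no test, and the other 7 genes were tested.

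The study asked how macrophages respond to the redox isoforms of HMGB1, a nuclear DNA-binding protein that acts as an alarm signal when cells release it. Macrophages were matured from bone marrow of wild-type female C57BL/6NTac mice aged 8 to 10 weeks in 10 ng/mL M-CSF, pooled from 5 mice before they were seeded, and then stimulated for 24 h in medium with 1% serum. Each of 5 conditions had 3 libraries. Control wells received PBS, and HMGB1 was given at 5 µg/mL either fully reduced (frHMGB1) or with its disulfide bond (dsHMGB1). LPS, a bacterial ligand of the receptor TLR4, was given alone at 1 µg/mL. The last condition (LPS/IFNγ), the stimulation of classical M1 macrophages, combined LPS with IFNγ at 20 ng/mL. Both isoforms were recombinant proteins with a calmodulin-binding tag. The labels give 2 concentrations of LPS for LPS/IFNγ, 1 µg/mL as the treatment and 100 ng/mL in the protocol. The study's methods give 100 ng/mL. At that dose, LPS/IFNγ and LPS differ in the dose of LPS as well as in IFNγ, and these cannot be told apart. The wells of all conditions held cells of the same pool, and the errors and p-values therefore measure how wells and libraries varied, which is technical spread, and say nothing of variation between mice. In RNA from whole wells, fewer cells of a type and less RNA per cell cannot be told apart.

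TGF-β and the activins are secreted dimers that bring type II and type I receptor kinases together, and the activated type I receptor phosphorylates SMAD2 and SMAD3, which enter the nucleus with SMAD4. SMAD7 blocks the type I receptor, and SKIL (also called SnoN) holds SMAD complexes at target genes in a repressed state. In macrophages the pathway is known for restraining inflammatory genes and for matrix repair, and activin A, the dimer of the *Inhba* product, is known to be secreted after TLR4 ligands.

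Total counts ranged from 40934540 to 80925478 per library. PBS replicate 3 stood apart from the other PBS libraries, with a Pearson correlation of 0.933 and 0.938 with them across genes, against 0.987 to 0.993 for all other pairs of replicates. Results of the 8 genes and the counts over all pathway lists are therefore also given without it. Values of single pathway genes are given only with PBS replicate 3. Its share of processed pseudogene counts was 1.49%, and the shares of the other libraries were 0.481% to 0.833%. The 7 macrophage markers on a fixed list (*Adgre1*, *Csf1r*, *Itgam*, *Cd68*, *Mertk*, *Fcgr1* and *Lyz2*) all passed the filter. Their summed level in CPM (counts scaled to each library's total) was 21598 to 25965 in PBS and 26778 to 27040 in frHMGB1. It was lower in dsHMGB1 (18396 to 19639), LPS (14881 to 15504) and LPS/IFNγ (13146 to 13453), and the part of this in the members' levels was not tested. The members' levels are in normalized counts, a different scale. On it, the means of *Adgre1*, *Itgam*, *Mertk* and *Fcgr1* were higher than in PBS in each of these conditions. *Adgre1* rose from 39921 in PBS to 101714, 84936 and 74097. *Lyz2*, the most abundant marker, had lower means (851976 in PBS, then 771650, 824092 and 681347). *Csf1r* and *Cd68* went in both directions. The fall in CPM was therefore not seen for every marker on the members' scale. The fibroblast list, of which 9 of 10 genes passed, summed to 192 to 390.3 CPM in PBS and 278 to 345 CPM in the other conditions. Neutrophil markers summed to at most 5.56 CPM (3 of 8 at 0 in every library), lymphocyte markers to at most 0.802 CPM (3 of 7 at 0), megakaryocyte markers to at most 0.791 CPM (1 of 4 at 0) and dendritic cell markers to 3.35 to 5.29 CPM in PBS, frHMGB1 and dsHMGB1, 7.89 to 8.73 CPM in LPS and 13.9 to 15 CPM in LPS/IFNγ.

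Set per kilobase of exon, the only scale on which levels of different genes are compared here, *Tgfb1* was the most abundant of the 8 genes in every condition. In PBS its mean was 4737 normalized counts per kb, followed by 1773 for *Tgfbr1*, 703 for *Tgfbi*, 693 for *Tgfbr2* and 243 for *Skil*. *Smad3* with 79.6, *Smad7* with 54.4 and *Inhba* with 21 were the lowest. *Inhba* did not stay the lowest: it reached 1473 per kb in LPS and 1413 in LPS/IFNγ, beside 896 and 1364 for *Tgfbr1*. In dsHMGB1, *Tgfbi* was second to *Tgfb1*, with 1990.2 against 5635 per kb, while *Tgfbr1* had 1730.4, a gap to *Tgfbi* that lay within the spread of the *Tgfbr1* libraries.

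**Figure D1:**
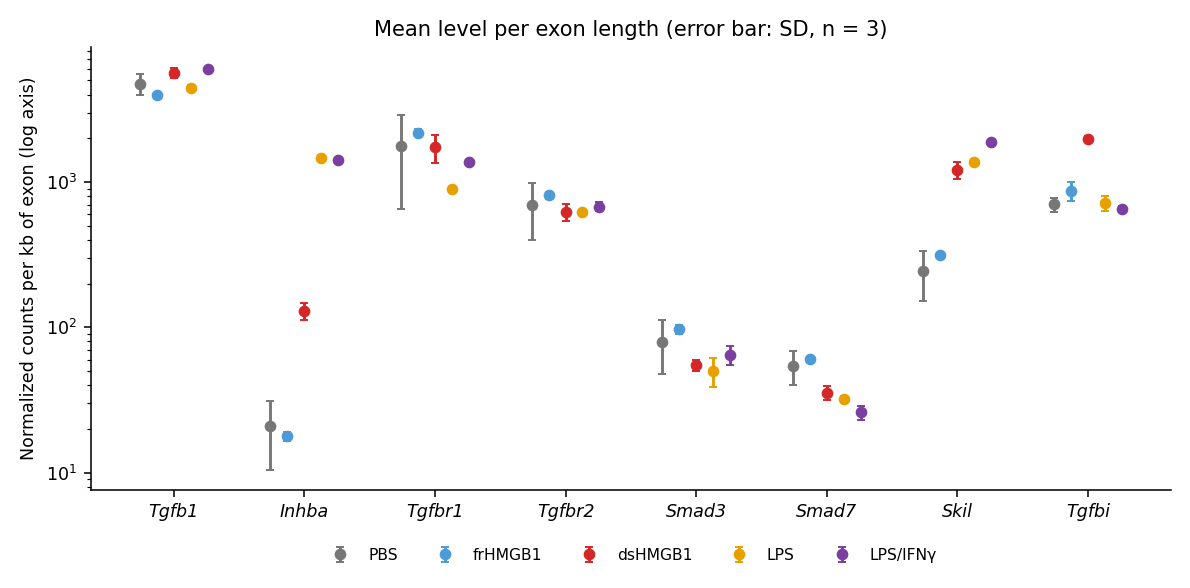
Mean normalized counts per kilobase of exon (log axis) of the 8 genes in the 5 conditions, with the standard deviation of 3 libraries as the error bar. *Inhba* spans from 17.9 per kb in frHMGB1 to 1473 in LPS, and *Tgfbi* is highest in dsHMGB1 with 1990.2 per kb.

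Of the 7 tested genes, edgeR's quasi-likelihood test called 4 in dsHMGB1 against PBS (adjusted p under 0.05, all 15 libraries in one fit), where 47.4% of all tested genes were called. *Tgfb1*, *Inhba* and *Skil* rose and *Smad7* fell. In LPS 5 of 7 were called (*Inhba* and *Skil* higher, *Tgfbr1*, *Smad3* and *Smad7* lower) beside 62.9% of all genes, and in LPS/IFNγ 4 of 7 (*Tgfb1*, *Inhba* and *Skil* higher, *Smad7* lower) beside 60.3%. In frHMGB1, edgeR and DESeq2 each called 0 of the 7 genes, 1 had an unadjusted p under 0.05 in edgeR, and 7% of all genes were called. With all libraries in the fit, the shares of called members were close to those over all genes, so the number of calls by itself is no result about these genes, and what follows is the size and direction of each. The libraries of the groups did not overlap for 2 of the 7 genes in frHMGB1 against PBS (20.4% of all genes), 3 in dsHMGB1 (49.9%), 3 in LPS (62.7%) and for 4 in LPS/IFNγ (63.2%). Among the stimulations, dsHMGB1 and LPS did not overlap for 3 genes (52.9% of all genes), dsHMGB1 and LPS/IFNγ for 4 (59%), LPS/IFNγ and LPS for 4 (60.5%), and dsHMGB1 and frHMGB1 for 6 (70.5%).

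Without PBS replicate 3, 7 genes were called in dsHMGB1, 6 in LPS, 7 in LPS/IFNγ and 1 in frHMGB1, with 58.8%, 71.2%, 67.7% and 17.5% of all genes. In normalized counts, that library was the lowest of the 3 PBS libraries for *Inhba*, *Tgfbr1*, *Tgfbr2*, *Smad3*, *Smad7* and *Skil* and the highest for *Tgfb1* and *Tgfbi*. The fit shares one estimate of the spread, so leaving the library out also changed comparisons without PBS. For dsHMGB1 against LPS, 2 of 7 genes were called with it (beside 26.4% of all genes) and 3 without it (48.8%). For dsHMGB1 against LPS/IFNγ the numbers were 1 (33.2%) and 4 (53.3%), for LPS/IFNγ against LPS 1 (25.7%) and 3 (49.4%), and for dsHMGB1 against frHMGB1 5 (50.8%) and 7 (68.7%). The comparisons with PBS share the PBS libraries, and each comparison's own values are given below.

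**Figure D2:**
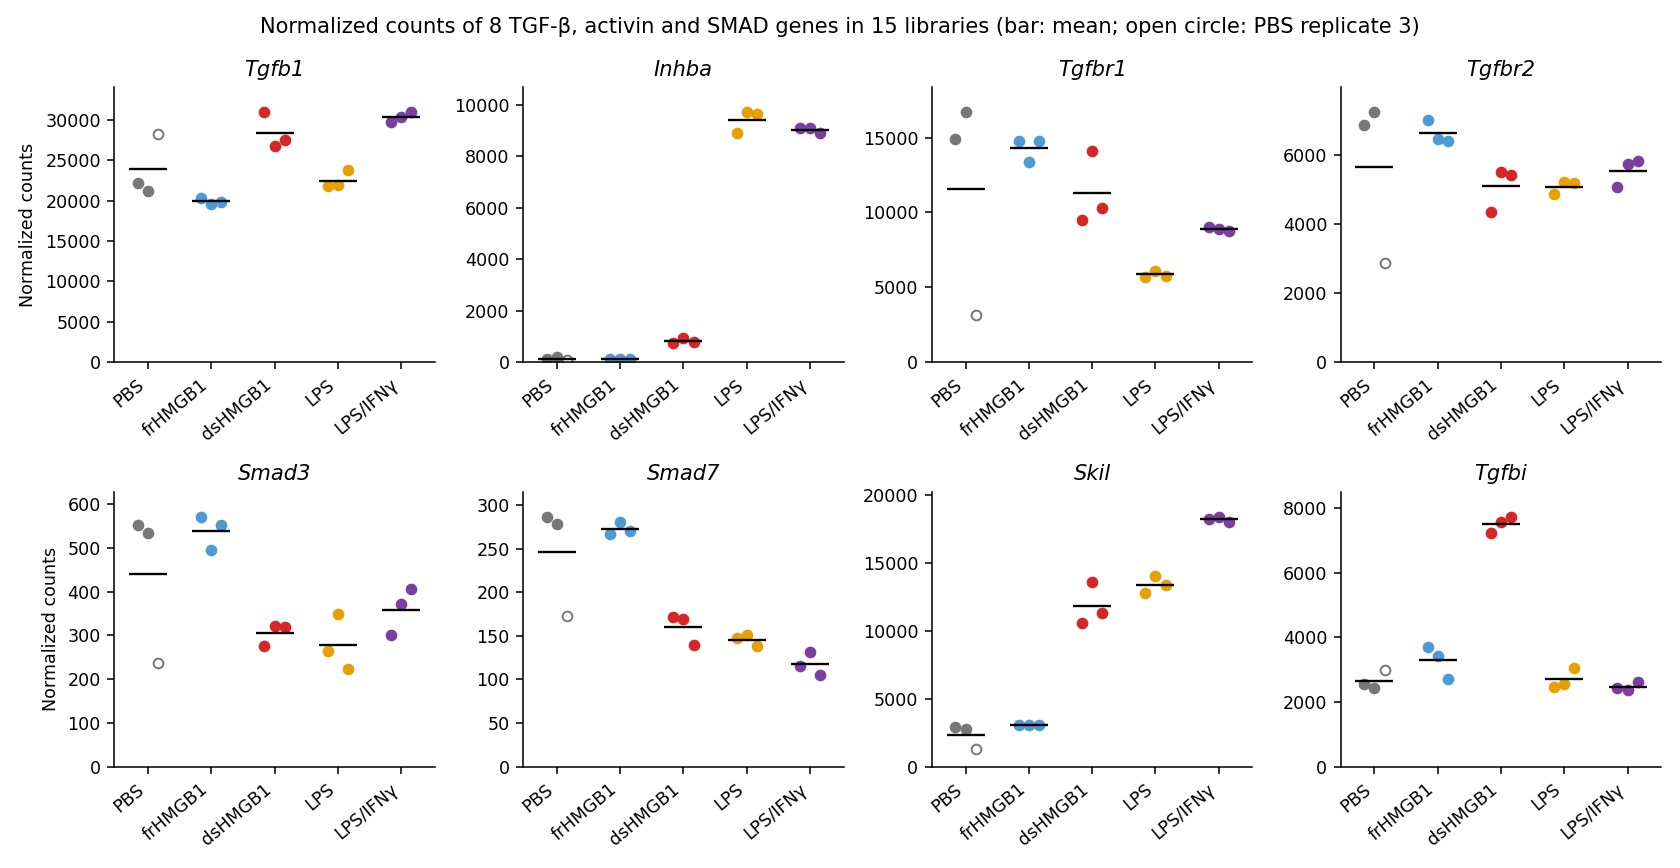
Normalized counts of each of the 8 genes (vertical axis, linear, each panel with its own scale from 0) in the 15 libraries by condition, with the mean as a bar and PBS replicate 3 as an open circle. *Inhba* lies between 8886 and 9711 in the LPS and LPS/IFNγ libraries and at or under 951 in all others, and the dsHMGB1 libraries of *Tgfbi* lie between 7220 and 7723, above all other libraries.

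*Tgfb1* (ENSMUSG00000002603, chromosome 7 of GRCm38 from 25687002 to 25705077) encodes TGF-β1, the TGF-β of most immune cells. It had 22176, 21211 and 28259 normalized counts in the PBS libraries, 20356, 19627 and 19774 in frHMGB1 and 30949.5, 26806 and 27475 in dsHMGB1. In LPS it had 21791, 21919.9 and 23747, and in LPS/IFNγ 29750.1, 30394 and 30940.5. The LPS/IFNγ libraries were above all PBS libraries, the dsHMGB1 libraries overlapped PBS replicate 3, and the frHMGB1 libraries were below every other library of the series. The log2 fold change over PBS (± its standard error throughout) was 0.35 ± 0.11 (adjusted p = 0.00786) in LPS/IFNγ, 0.25 ± 0.11 (adjusted p = 0.0420) in dsHMGB1, -0.09 (adjusted p = 0.194) in LPS and -0.26 (adjusted p = 0.191) in frHMGB1. The dsHMGB1 call was lost without PBS replicate 1 (adjusted p = 0.104), PBS replicate 2 (0.122), dsHMGB1 replicate 1 (0.131) or dsHMGB1 replicate 3 (0.0558), and without PBS replicate 3 the change was 0.39 (adjusted p = 9.1e-05). Compared directly, *Tgfb1* was higher in dsHMGB1 than in LPS, by 0.34 ± 0.11 (adjusted p = 0.00681), and in LPS/IFNγ than in LPS, by 0.43 ± 0.11 (adjusted p = 0.00203). The former call was lost without dsHMGB1 replicate 1 (adjusted p = 0.051). Against LPS/IFNγ the difference of dsHMGB1 was -0.10 with a 95% interval of -0.31 to 0.12, and against frHMGB1 it was 0.51 ± 0.11 (adjusted p = 0.000680). The share of processed pseudogene counts followed *Tgfb1* in part. It was 0.54% to 0.56% in frHMGB1 and 0.481% to 0.487% in LPS, 0.684% to 0.709% in LPS/IFNγ and 0.712% to 0.833% in dsHMGB1, and among the PBS libraries it was highest, 1.49%, in replicate 3, where *Tgfb1* was highest too. PBS replicates 1 and 2 did not follow, with 0.816% and 0.805% at a *Tgfb1* level below LPS/IFNγ and dsHMGB1. The part of this share in the differences of *Tgfb1* was not tested.

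*Inhba* (ENSMUSG00000041324, chromosome 13 from 16011851 to 16031621) encodes the βA chain of activin and inhibin, and showed the widest range of the 8 genes. It had 133, 201 and 67.9 normalized counts in PBS and 118, 105 and 119.7 in frHMGB1, values that overlapped. In dsHMGB1 it had 748, 951 and 789, all above the PBS and frHMGB1 libraries. In LPS it had 8894, 9711 and 9638 and in LPS/IFNγ 9110.0, 9092 and 8886, which overlapped each other and lay far above dsHMGB1. Over PBS this was 6.12-fold in dsHMGB1 (log2 fold change 2.61 ± 0.26, adjusted p = 4.36e-06), 69.5-fold in LPS (log2 fold change 6.12 ± 0.26, adjusted p = 1.94e-09) and 66.6-fold in LPS/IFNγ (log2 fold change 6.06 ± 0.26, adjusted p = 1.86e-09). The PBS level rests on 582 counts over 3 libraries and the frHMGB1 level on 324. *Inhba* was 11.4-fold lower in dsHMGB1 than in LPS (log2 difference -3.50 ± 0.26, adjusted p = 1.67e-06) and 10.9-fold lower than in LPS/IFNγ (log2 difference -3.44 ± 0.26, adjusted p = 7.05e-07). These 5 calls were also made with any single library left out. Between LPS/IFNγ and LPS the log2 difference was -0.06, with a 95% interval of -0.56 to 0.44 (adjusted p = 0.965). In frHMGB1 the log2 fold change was -0.25 (adjusted p = 0.718), and without PBS replicate 3 it was -0.55 (adjusted p = 0.0213). The gene overlaps B230303A05Rik and Gm48444 on the opposite strand, which had 190 and 25 counts over all libraries against 50867 for *Inhba*, and the sources used here do not say whether the counting used the strand.

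*Tgfbr1* (ENSMUSG00000007613, chromosome 4 from 47353222 to 47414931) and *Tgfbr2* (ENSMUSG00000032440, chromosome 9 from 116084293 to 116175360) encode the type I and the type II receptor of TGF-β. *Tgfbr1* had 14888, 16696 and 3170.1 normalized counts in PBS, 14751, 13349 and 14797 in frHMGB1 and 9501, 14128 and 10291 in dsHMGB1. In LPS it had 5703, 6113 and 5757 and in LPS/IFNγ 9041, 8926 and 8775. PBS replicate 3 was far below the other PBS libraries and the lowest of all 15. Apart from it, the LPS libraries were the lowest, the LPS/IFNγ libraries came next, and the dsHMGB1 libraries overlapped frHMGB1. *Tgfbr1* was called lower in LPS than in PBS (-0.98 ± 0.41, adjusted p = 0.0385) but not in LPS/IFNγ (-0.38, adjusted p = 0.383) or dsHMGB1 (-0.04, adjusted p = 0.902). Without PBS replicate 3 the values were -1.44 (adjusted p = 1.81e-09), -0.84 (adjusted p = 1.49e-06) and -0.49 (adjusted p = 0.000849). Leaving out any other PBS or LPS library lost the LPS call (adjusted p = 0.0913 to 0.169).

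The log2 difference of *Tgfbr1* between dsHMGB1 and LPS was 0.95 ± 0.41 (adjusted p = 0.0989), with no overlap between the libraries, and that between LPS/IFNγ and LPS 0.61 ± 0.41 (adjusted p = 0.302). Neither was called with PBS replicate 3 in the fit, and without it they were 0.95 (adjusted p = 5.64e-07) and 0.60 (adjusted p = 0.000143). *Tgfbr2* had 6884, 7249.7 and 2885 normalized counts in PBS, 7021, 6483 and 6409 in frHMGB1 and 4348, 5524 and 5427 in dsHMGB1. In LPS it had 4881, 5211 and 5189, and in LPS/IFNγ 5089.5, 5748 and 5823. PBS replicate 3 was again the lowest library, and the other PBS libraries and frHMGB1 were above all libraries of dsHMGB1, LPS and LPS/IFNγ. With all libraries the log2 fold changes over PBS were -0.15 in dsHMGB1, -0.16 for LPS and -0.03 for LPS/IFNγ (adjusted p = 0.592, 0.450 and 0.820), and without PBS replicate 3 they were -0.47 (adjusted p = 7.78e-05), -0.48 (adjusted p = 3.38e-05) and -0.36 (adjusted p = 0.000383). The difference between dsHMGB1 and LPS was 0.00, with a 95% interval of -0.52 to 0.52.

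*Smad3* (ENSMUSG00000032402, chromosome 9 from 63646767 to 63757994) encodes one of the receptor-activated SMADs shared by TGF-β and activin. It had 552, 535 and 237 normalized counts in PBS and 571, 496 and 551 in frHMGB1. In dsHMGB1 it had 275, 321 and 319, in LPS 265, 349.7 and 222 and in LPS/IFNγ 300.1, 371 and 405. All libraries of these 3 conditions were below frHMGB1 and below PBS replicates 1 and 2. PBS replicate 3 lay within the range of LPS and below all libraries of dsHMGB1 and LPS/IFNγ. Over PBS, the log2 fold change was -0.67 ± 0.28 (adjusted p = 0.0339) in LPS, -0.54 ± 0.28 (adjusted p = 0.113) in dsHMGB1 and -0.30 ± 0.28 (adjusted p = 0.299) in LPS/IFNγ, of which the first was called. Without PBS replicate 3 all were called, with -0.97 (adjusted p = 1e-05), -0.84 (adjusted p = 5.89e-05) and -0.61 (adjusted p = 0.000603). The LPS call was lost without PBS replicate 1 (adjusted p = 0.136), PBS replicate 2 (0.119), LPS replicate 1 (0.104) or LPS replicate 3 (0.151). Against frHMGB1, the log2 fold change of *Smad3* in dsHMGB1 was -0.82 ± 0.28 (adjusted p = 0.0221), a call that was lost without frHMGB1 replicate 1 (adjusted p = 0.061), frHMGB1 replicate 3 (0.055), dsHMGB1 replicate 1 (0.0722) or dsHMGB1 replicate 3 (0.0505).

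*Smad7* (ENSMUSG00000025880, chromosome 18 from 75367529 to 75395935) encodes the inhibitory SMAD that TGF-β itself induces. It had 286, 279 and 172 normalized counts in PBS and 267, 280.0 and 269.6 in frHMGB1, which overlapped. In dsHMGB1 it had 171.7, 169 and 139.5, in LPS 147, 151 and 138 and in LPS/IFNγ 116, 132 and 105. All libraries of these 3 conditions were below all PBS and frHMGB1 libraries, although dsHMGB1 replicate 1 lay only just below PBS replicate 3 (172), and the LPS/IFNγ libraries were below those of dsHMGB1 and LPS. *Smad7* fell over PBS in each, with a log2 fold change of -0.63 ± 0.19 (adjusted p = 0.0162) in dsHMGB1, -0.77 ± 0.20 (adjusted p = 0.00267) in LPS and -1.08 ± 0.20 (adjusted p = 0.000307) in LPS/IFNγ. The dsHMGB1 call was lost without PBS replicate 1 (adjusted p = 0.0678), PBS replicate 2 (0.0598) or dsHMGB1 replicate 3 (0.0743), and without PBS replicate 3 it was -0.82 (adjusted p = 2.83e-05). It also fell in dsHMGB1 against frHMGB1 (log2 fold change -0.76 ± 0.19, adjusted p = 0.00450). Over LPS/IFNγ, dsHMGB1 differed by 0.45 ± 0.20 (adjusted p = 0.0949) with PBS replicate 3 in the fit and by 0.46 (adjusted p = 0.00446) without it.

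*Skil* (ENSMUSG00000027660, chromosome 3 from 31095058 to 31122577), the SMAD repressor, rose in all 3 inflammatory conditions. It had 2933, 2804 and 1333 normalized counts in PBS and 3032, 3054 and 3048 in frHMGB1. In dsHMGB1 it had 10531, 13554 and 11280.3, in LPS 12754, 14042 and 13339.5 and in LPS/IFNγ 18197, 18365 and 17964. The frHMGB1 libraries lay just above PBS, the dsHMGB1 and LPS libraries overlapped each other, and the LPS/IFNγ libraries were above all others. Over PBS the change was 5-fold in dsHMGB1 (log2 fold change 2.32 ± 0.23, adjusted p = 3.48e-06), 5.67-fold in LPS (2.50 ± 0.23, adjusted p = 1.29e-06) and 7.71-fold in LPS/IFNγ (2.95 ± 0.23, adjusted p = 2.35e-07). These calls were also made with any single library left out. Against frHMGB1 the rise in dsHMGB1 was 1.95 ± 0.23 (adjusted p = 1.64e-05). Between dsHMGB1 and LPS the log2 difference was -0.18, with a 95% interval of -0.64 to 0.27 (adjusted p = 0.744). Against LPS/IFNγ, *Skil* differed in dsHMGB1 by -0.62 ± 0.23 (adjusted p = 0.0594), and without PBS replicate 3 by -0.62 (adjusted p = 1.65e-06). In frHMGB1 it was 0.37 over PBS (adjusted p = 0.475), and 0.09 (adjusted p = 0.568) without PBS replicate 3.

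**Figure D3:**
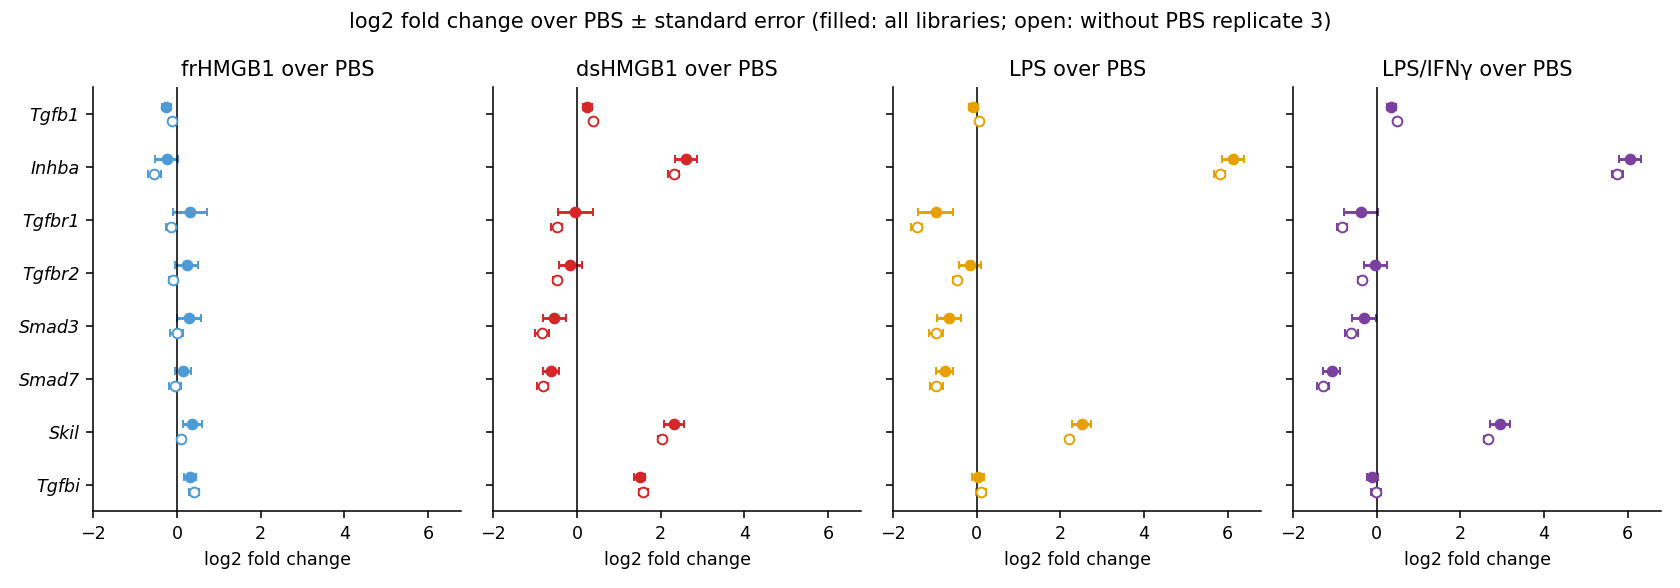
Log2 fold change over PBS (horizontal axis) with its standard error for each of the 8 genes in the 4 stimulations, with all libraries (filled) and without PBS replicate 3 (open). *Inhba* is the farthest from 0 in LPS and LPS/IFNγ (6.12 and 6.06), *Tgfbi* is at 1.5 in dsHMGB1 and between -0.10 and 0.03 in LPS and LPS/IFNγ, and the open symbols of *Tgfbr1* lie left of the filled ones (-1.44 against -0.98 in LPS).

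*Tgfbi* (ENSMUSG00000035493, chromosome 13 from 56609523 to 56639562) encodes a matrix protein that binds collagens and integrins and is secreted by macrophages, among other cells. Its values chose it and are given as a description. It had 2547, 2429.8 and 2979 normalized counts in PBS, 3711, 3422 and 2724 in frHMGB1 and 7219.8, 7573 and 7723 in dsHMGB1. In LPS it had 2466, 2566 and 3063, and in LPS/IFNγ 2432, 2361 and 2607. The dsHMGB1 libraries were above all others and differed little among themselves, and the libraries of PBS, LPS and LPS/IFNγ overlapped. The mean in dsHMGB1 was 7505 ± 258 (SD, n = 3), which was 2.83-fold the mean of PBS, 2.78-fold that of LPS, 3.04-fold that of LPS/IFNγ and 2.28-fold that of frHMGB1. On the log2 scale the differences were 1.5 (standard error 0.13), 1.48 (0.13), 1.61 (0.13) and 1.19 (0.13). In frHMGB1, replicates 1 and 2 were above all libraries of PBS, LPS and LPS/IFNγ, replicate 3 was within their range, and the log2 fold change over PBS was 0.31 (standard error 0.13). PBS replicate 3 was the highest PBS library, and without it the dsHMGB1 value over PBS was 1.59.

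The order of the conditions differed between the genes, as a description. For *Inhba* and *Skil*, dsHMGB1 lay between PBS and the conditions with LPS. For *Smad7*, the order from high to low was frHMGB1, PBS, dsHMGB1, LPS and LPS/IFNγ, in which PBS and dsHMGB1 did not overlap, nor did LPS and LPS/IFNγ, while the other neighbours did. For *Tgfb1*, the highest conditions were LPS/IFNγ and dsHMGB1, which overlapped, and for *Tgfbi* it was dsHMGB1. Over the 15 libraries, which share conditions, the Pearson correlation of log2(normalized count + 1) was 0.92 between *Inhba* and *Skil*, 0.86 between *Tgfbr1* and *Tgfbr2*, -0.85 between *Inhba* and *Smad7* and -0.82 between *Skil* and *Smad7*. That of *Tgfbi* with the other 7 genes lay between -0.24 and 0.28.

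RefSeq promoter windows of GRCm38.p6 were found for 6 of the 8 genes and not for *Smad7* and *Skil*. Those of *Inhba* and *Tgfbi* are shown, because these genes had the highest levels in different conditions. Both are on the forward strand and end at the last base before the gene's start in GENCODE M21. The window of *Inhba*, chr13:16011601-16011850, has 43.2% G and C, and the capitals mark the letters TATAAA, 91 bases before the start, which 13.6% of 32851 promoter windows hold. The window of *Tgfbi*, chr13:56609336-56609522, has 59.4% G and C, and the capitals mark the letters GGGCGG (a GC box), which 35.7% of the windows hold.
Inhba: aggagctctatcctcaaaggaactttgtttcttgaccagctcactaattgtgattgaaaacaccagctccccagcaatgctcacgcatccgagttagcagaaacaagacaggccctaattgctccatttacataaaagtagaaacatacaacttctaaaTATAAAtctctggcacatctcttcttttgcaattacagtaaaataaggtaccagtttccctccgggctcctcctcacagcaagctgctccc
Tgfbi: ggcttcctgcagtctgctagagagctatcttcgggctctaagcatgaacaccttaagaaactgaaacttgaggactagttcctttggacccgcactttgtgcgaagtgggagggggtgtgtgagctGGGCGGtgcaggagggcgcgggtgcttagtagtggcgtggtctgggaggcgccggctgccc
On both strands, neither window held the SMAD-binding letters CAGACA (21% of all windows), the palindrome GTCTAGAC (0.213%), the AP-1 letters TGANTCA (7.81%), the cAMP response element TGACGTCA (1.79%) or the κB consensus (8.46%). The shares were counted on both strands over windows that also hold the first bases after the start site, and a missing match says only that these letters are not in the window.

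The other genes of the pathway were taken from 7 lists of 94 genes that hold none of the 8, and 74 of them passed the filter. These lists, too, were chosen with earlier results of these data known. In dsHMGB1 against PBS, 28 of the 74 were called higher (37.8%, against 23.3% of all tested genes) and 14 lower (18.9%, against 24.2%). For LPS, 32 were higher (43.2%, against 26.7%) and 18 lower (24.3%, against 36.2%), and for LPS/IFNγ 38 were higher (51.4%, against 29%) and 15 lower (20.3%, against 31.2%). The median log2 fold changes of the 74 genes were 0.36, 0.49 and 0.76, against -0.10, -0.21 and -0.12 for all genes. In frHMGB1, 3 were called higher and 2 lower, where 1.31% and 5.69% of all genes were. Compared directly, 6 were higher (15.8% of all genes) and 17 lower (10.6%) in dsHMGB1 than in LPS, and 9 higher (16.5%) and 24 lower (16.7%) than in LPS/IFNγ. In LPS/IFNγ 14 were higher (16.3%) and 12 lower (9.36%) than in LPS, and in dsHMGB1 25 were higher (27.7%) and 14 lower (23.1%) than in frHMGB1. Without PBS replicate 3, 75 passed the filter, and over PBS 31 were higher (29.8% of all genes) and 19 lower (29%) in dsHMGB1, 35 (32.9%) and 22 (38.3%) in LPS, and 41 (33.3%) and 22 (34.4%) in LPS/IFNγ. The counts of single lists below stand beside the same shares of all genes, and some were close to them. In dsHMGB1 45.5% of the tested receptors were called (47.4% of all genes), and in LPS 62.5% of the other SMADs and partners (62.9%). The number of calls in a list by itself is no result about its genes.

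**Figure D4:**
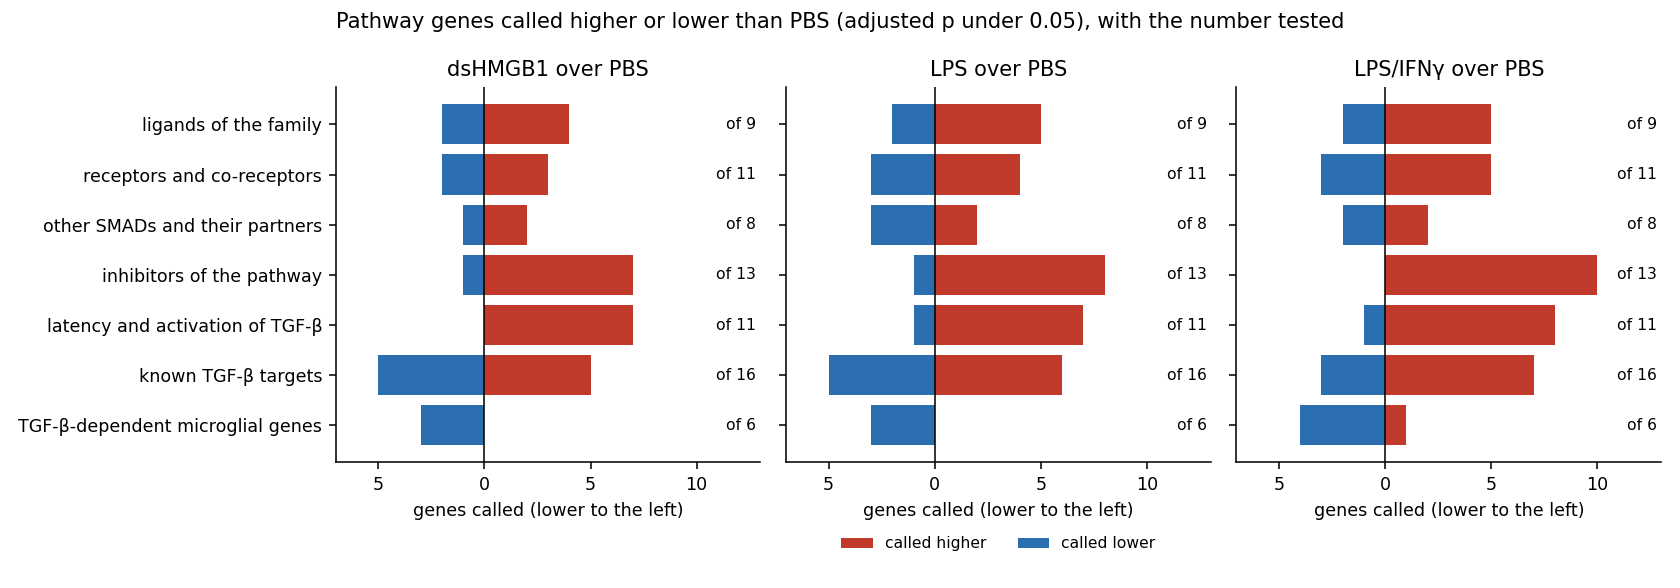
Number of genes called higher (right of 0) and lower (left of 0) than PBS in each of the 7 pathway lists, with the number tested at the right edge of each panel. The lists of inhibitors (which also counts *Usp15*, not an inhibitor) and of latency and activation hold mostly genes called higher, 7 of 13 and 7 of 11 in dsHMGB1. The 3 microglial genes called in dsHMGB1 were all lower.

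Of the 9 tested ligand genes, 4 were called higher and 2 lower in dsHMGB1, and in LPS and in LPS/IFNγ alike 5 and 2. *Gdf15*, a stress-induced member of the family, had 557 ± 225 normalized counts (SD, n = 3) in PBS, 5826 ± 1355 in dsHMGB1, 9733 ± 677 in LPS and only 1167 ± 41.9 in LPS/IFNγ, a rise of 3.39 ± 0.24 (adjusted p = 3.97e-08) on the log2 scale in dsHMGB1. Unlike *Inhba*, it was higher in dsHMGB1 than in LPS/IFNγ, by 2.32 ± 0.24 (adjusted p = 2.49e-06). *Bmp2*, a bone morphogenetic protein, rose from 23.9 to 127, 163 and 239 in the same order of conditions. *Tgfb2*, the gene of TGF-β2, had 51.6, 63.8 and 62.2 in dsHMGB1, within the range of PBS (70.5, 45.4 and 46.9), and 418, 407 and 402 in LPS/IFNγ (2.90 ± 0.22, adjusted p = 2.3e-07 over PBS). *Gdf11*, which signals through activin receptors, rose most in LPS, from 25.4 to 331 (3.74 ± 0.28, adjusted p = 2.41e-07), and *Gdf3* fell in all 3 conditions, from 637 to 458, 410.1 and 376.

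Among 11 receptors and co-receptors, 3 were called higher and 2 lower in dsHMGB1, 4 and 3 in LPS, and 5 and 3 in LPS/IFNγ. *Acvr1*, the type I receptor ALK2 for bone morphogenetic proteins and activins, had 857, 908 and 186 normalized counts in PBS, 2725, 2926 and 2734 in dsHMGB1, 3688, 4016 and 3954 in LPS and 5556, 5484 and 5576 in LPS/IFNγ. Every library of these 3 conditions was above PBS, with log2 fold changes of 2.10 ± 0.39 (adjusted p = 0.000788), 2.58 ± 0.39 (adjusted p = 0.000127) and 3.09 ± 0.39 (adjusted p = 2.43e-05). PBS replicate 3 pulled the PBS mean of *Acvr1* down, which enlarges these fold changes. *Eng*, the co-receptor endoglin, rose in dsHMGB1 and LPS, from 4075 to 7734 and 8707, and had 3968 in LPS/IFNγ. The activin type II receptors went apart: *Acvr2a* rose in LPS/IFNγ from 342 to 935 (1.45 ± 0.26, adjusted p = 0.000395), and *Acvr2b* fell from 108 to 38.6 in dsHMGB1 (-1.49 ± 0.30, adjusted p = 0.000954). *Acvrl1*, which encodes the type I receptor ALK1, fell from 1767 to 1223 in dsHMGB1, to 863 in LPS and to 797 in LPS/IFNγ.

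Of 8 other SMADs and their partners, 2 were called higher and 1 lower in dsHMGB1, 2 and 3 in LPS, and 2 and 2 in LPS/IFNγ. *Smad2*, the partner of *Smad3* in the pathway, rose from 2302 to 3774 in dsHMGB1 (0.71 ± 0.17, adjusted p = 0.00562), 4855 in LPS and 3953 in LPS/IFNγ. *Smad4*, the common SMAD, rose from 2499 to 3886 (0.64 ± 0.19, adjusted p = 0.0193), 4977 and 6103. PBS replicate 3 was the lowest PBS library for both. *Smad6*, the inhibitory SMAD of the bone morphogenetic protein branch, fell from 161 to 86.4 in dsHMGB1 and 47.2 in LPS, and had 165 in LPS/IFNγ, where *Smad7* was lowest. *Zfyve9*, which encodes a protein that brings SMADs to the receptor, fell from 352 to 174 in LPS and 189.7 in LPS/IFNγ. Its PBS replicate 3 had 207, against 409 and 441 in replicates 1 and 2.

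The inhibitor list had 13 tested genes, among them *Usp15*, which is not an inhibitor. Of the 13, 7 were called higher and 1 lower in dsHMGB1 and 8 and 1 in LPS, and the 10 called in LPS/IFNγ were all higher. Set against LPS, the 6 called genes of this list were all lower in dsHMGB1, where 10.6% of all genes were called lower. Against LPS/IFNγ so were all 8, where 16.7% of all genes were. The mean of *Usp15* was also lower in dsHMGB1 (6323) than in LPS (10559) and LPS/IFNγ (11475). *Fst* encodes follistatin, which binds and neutralizes activin. It had 12.3, 15.8 and 14.1 normalized counts in PBS, 31.1, 22.7 and 32.8 in dsHMGB1, 71.1, 91.2 and 97 in LPS and 1864, 1591 and 1698 in LPS/IFNγ. While the *Inhba* libraries of LPS and LPS/IFNγ overlapped, the means of *Fst* were 86.4 and 1718, a log2 difference of 4.32 ± 0.18 (adjusted p = 5.26e-09). *Pmepa1*, which encodes an inhibitor of SMAD phosphorylation, had means of 109, 257, 890.1 and 2702 in the same order and rose over PBS in all 3 conditions. *Ski*, the closest relative of *Skil*, moved otherwise: it had 6556, 6562 and 3219 in PBS, 2381, 2968 and 3056 in dsHMGB1, 3105, 3038 and 2983 in LPS and 17903, 18213 and 18571 in LPS/IFNγ. It fell in dsHMGB1 (-0.96 ± 0.22, adjusted p = 0.00248) and LPS (-0.84 ± 0.22, adjusted p = 0.00274) and rose in LPS/IFNγ (1.74 ± 0.22, adjusted p = 1.86e-05). PBS replicate 3 pulled the PBS mean of *Ski* down, which lessens the falls and enlarges the rise. *Dcn*, which encodes the matrix proteoglycan decorin and is also on the fibroblast list, rose from 156 to 387, 548 and 596. The fibroblast sum in CPM did not rise with it. PBS replicates 1 and 2 had 367 and 390.3 CPM, above every library of the other conditions (at most 345 CPM). PBS replicate 3 had 192 CPM, below all of them. The *Dcn* values are normalized counts, a different scale. On that scale every gene of the fibroblast list had a higher mean in LPS than in PBS, with 7376 against 4655 for *Col1a1*. Only *Acta2* and *Thy1* had lower means than PBS in dsHMGB1, and only *Pdgfra* and *Thy1* in LPS/IFNγ. The sum in CPM therefore does not set *Dcn* apart from the other markers.

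**Figure D5:**
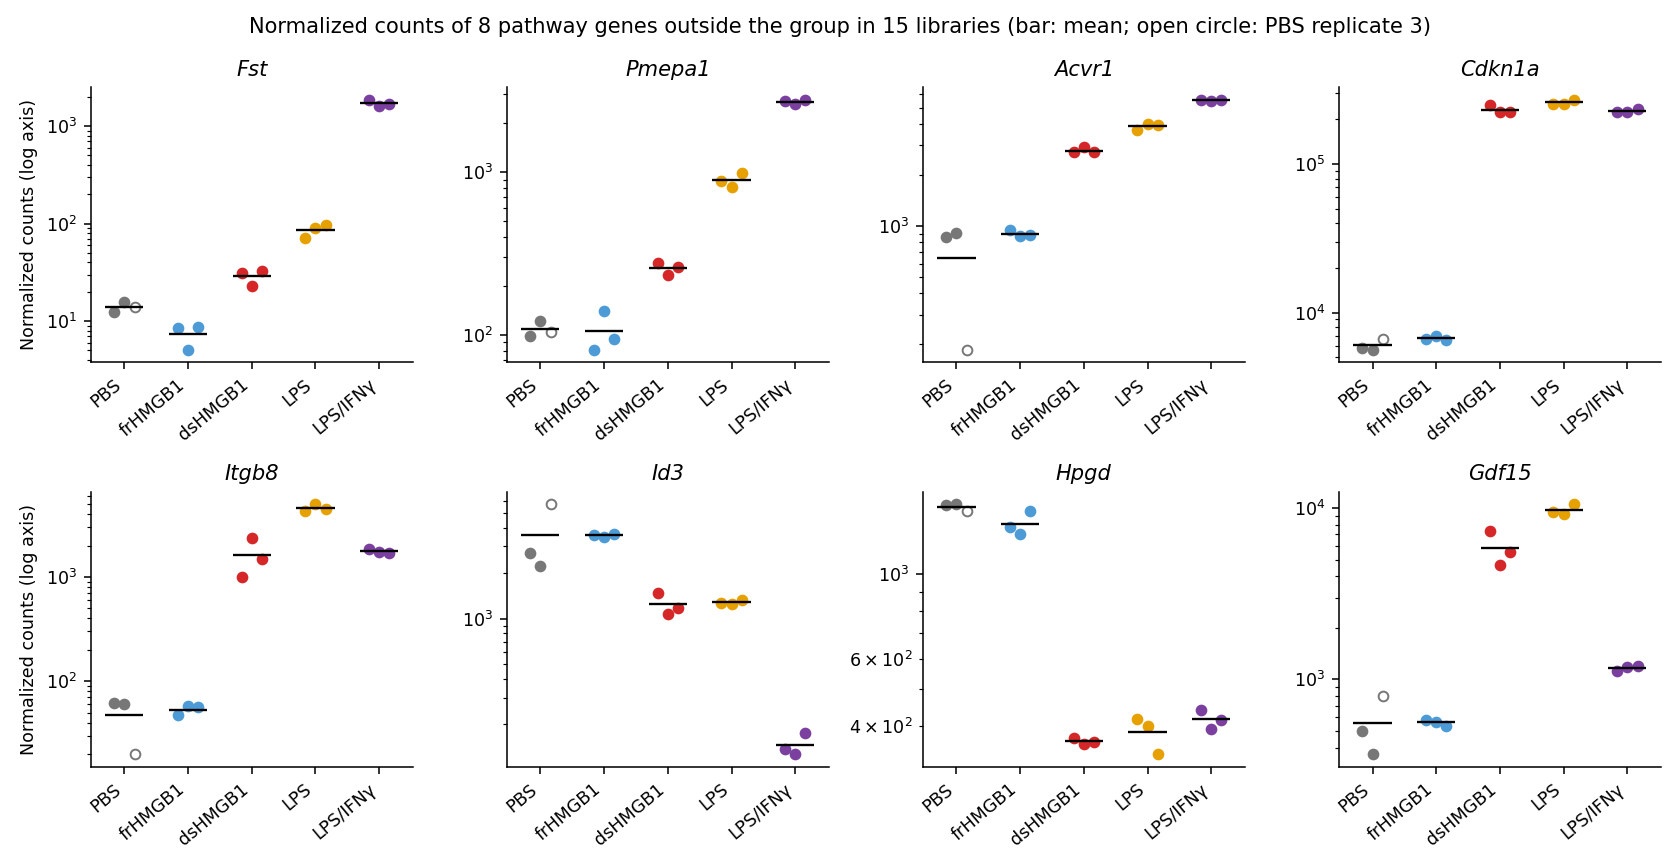
Normalized counts (log axis) of 8 pathway genes outside the 8 described genes in the 15 libraries by condition, with the mean as a bar and PBS replicate 3 as an open circle. *Fst* is at or under 97 in the LPS libraries and at or above 1591 in those of LPS/IFNγ, while *Gdf15* is at or above 4651 in dsHMGB1 and LPS and at or under 1195 elsewhere.

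TGF-β is secreted in a latent complex that integrins, proteases and anchoring proteins open or hold. Of 11 tested genes of latency and activation, the 7 called in dsHMGB1 were all higher, and 7 were higher and 1 lower in LPS and 8 and 1 in LPS/IFNγ. *Itgb8*, the β8 chain of an integrin that activates TGF-β, had 62.1, 59.9 and 19.9 normalized counts in PBS, 1003, 2387 and 1506 in dsHMGB1, 4319, 4987 and 4458 in LPS and 1861, 1751 and 1714 in LPS/IFNγ, a rise of 5.08 ± 0.34 (adjusted p = 1.42e-07), 6.57 ± 0.34 (adjusted p = 1.2e-08) and 5.20 ± 0.34 (adjusted p = 6.92e-08) on the log2 scale. PBS replicate 3 pulled the PBS mean of *Itgb8* down, which enlarges these changes. *Mmp14*, a membrane protease, rose from 1955 to 27342 in dsHMGB1, to 31193 in LPS and to 11219.7 in LPS/IFNγ. The genes of the 2 surface proteins that hold latent TGF-β, *Lrrc32* (GARP) and *Nrros*, went in opposite directions in LPS/IFNγ. *Lrrc32* rose from 699 to 6289 (3.16 ± 0.20, adjusted p = 2.65e-08), and *Nrros*, the form of myeloid cells, fell from 6628 to 3555 (-0.90 ± 0.08, adjusted p = 1.55e-06). In dsHMGB1, *Nrros* was at 8829.7 and higher than in PBS (0.41 ± 0.07, adjusted p = 0.00334). This level was not particular to dsHMGB1: the mean in frHMGB1 was 8793, and the frHMGB1 libraries lay within the range of those of dsHMGB1.

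Of 16 tested genes known as TGF-β targets in other cells, 5 were called higher and 5 lower in dsHMGB1, 6 and 5 in LPS, and 7 and 3 in LPS/IFNγ, and the direction of single genes differed from that of *Tgfbi*. *Cdkn1a*, the cell cycle inhibitor p21, rose from 6033 to 233375, 261130.1 and 227798 in dsHMGB1, LPS and LPS/IFNγ. *Id3*, a target of the bone morphogenetic protein branch, fell from 3549 to 1246, 1279.9 and 147 in the same order, and *Hpgd*, the enzyme that breaks down prostaglandins, fell from 1500.0 to 365, 386 and 417. *Bhlhe40*, a transcription factor, fell in dsHMGB1 from 5568 to 1949 (-1.51 ± 0.20, adjusted p = 2.71e-05) and in LPS to 3108 (-0.84 ± 0.20, adjusted p = 0.00118), and rose in LPS/IFNγ to 7992 (0.52 ± 0.20, adjusted p = 0.0468). PBS replicate 3 pulled the PBS mean of *Bhlhe40* down, with 3552 against 6629 and 6524 in replicates 1 and 2. It pulled that of *Id3* up, with 5692 against 2711 and 2245. *Col1a1* and *Acta2* of the target list are also fibroblast markers and were not called in dsHMGB1 (adjusted p = 0.209 and 0.0873).

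Of 9 genes that depend on TGF-β in microglia, the macrophages of the brain, 6 passed the filter, and 3 were called lower in dsHMGB1, 3 lower in LPS, and 4 lower and 1 higher in LPS/IFNγ. *Cx3cr1*, the fractalkine receptor, had 183, 201 and 254 normalized counts in PBS, 32.9, 38.9 and 58.8 in dsHMGB1, 15.5, 12 and 5.88 in LPS and 1.06, 10.5 and 11 in LPS/IFNγ. Every library of the 3 conditions was below PBS, and dsHMGB1 was above both others, by 1.95 ± 0.42 (adjusted p = 0.00580) over LPS and 2.51 ± 0.42 (adjusted p = 0.000874) over LPS/IFNγ. *Gpr34*, a lysophospholipid receptor, had 176, 199 and 78.5 in PBS, 6.23, 12.5 and 13.4 in dsHMGB1, 16.8, 14.9 and 7.35 in LPS and 68.9, 71.6 and 74.9 in LPS/IFNγ. It fell in all 3 conditions, and in contrast to *Cx3cr1* its LPS/IFNγ libraries were above those of dsHMGB1 (dsHMGB1 minus LPS/IFNγ -2.73 ± 0.44, adjusted p = 0.000278).

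The genes most like each of the 8 over the 15 libraries were sought among the 10921 genes whose mean reached 100 normalized counts, by the Pearson correlation of log2(normalized count + 1), as a description. The genes found in this way share the member's pattern by choice, so the condition where they are highest or lowest is no separate result. For *Tgfbi* they were *Zadh2*, *Sh3tc1* and *Cyp51* (r = 0.90 for each). All 3 had their highest mean in dsHMGB1, where *Zadh2* had 2607 ± 93.9 normalized counts (SD, n = 3) against 1183 ± 158 in PBS, 954 ± 21.3 in LPS and 739 ± 18.5 in LPS/IFNγ. *Cyp51*, an enzyme of sterol synthesis, had 5376 ± 217 in dsHMGB1, 2638 ± 440 in PBS and 3438 ± 52.3 in LPS. For *Inhba* they were *Gmeb1*, *Rabgef1* and *Ifnar2* (r = 1.00, 0.99 and 0.99). *Ifnar2*, a chain of the type I interferon receptor, had 3974 ± 456 in PBS, 6524 ± 130 in dsHMGB1, 12098 ± 266 with LPS and 11275 ± 368 with LPS/IFNγ. For *Skil* they were *Rassf4*, *Itgal* and *Axl* (r rounds to 1.00 for each), and *Axl*, a receptor for apoptotic cells, had 4843 ± 1907 in PBS, 17814 ± 982 in dsHMGB1, 21744 ± 912 with LPS and 25428 ± 1362 with LPS/IFNγ. For *Smad7* they were *Mcm2*, *Rap2a* and *Ankrd10* (r = 0.98 for each), and *Mcm2*, a subunit of the replicative helicase, had 441 ± 138 in PBS, 212 ± 15.3 in dsHMGB1, 171 ± 7.11 with LPS and 131 ± 9.88 with LPS/IFNγ. For *Tgfbr1*, *Tgfbr2* and *Smad3* the nearest genes had r of 0.94 to 0.98, with PBS replicate 3 as a low library of the receptors. For *Tgfb1* the 3 nearest were the processed pseudogenes *Gm7204*, *Gm9512* and *Gm21399* (r = 0.95, 0.95 and 0.93), whose means were lowest in frHMGB1, as that of *Tgfb1* was.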

How the data were processed

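RNA-seq libraries of 15 samples in 5 conditions were grouped by their labels. The deposited values are raw read counts per Ensembl gene. Per the labels and the study's methods, the authors made stranded mRNA libraries, sequenced them in pairs on a NextSeq 2000, converted base calls with CASAVA, mapped reads with STAR to GRCm38 and used DESeq2. Which program counted the reads, with which annotation and strand setting, was not given in the sources used here. GENCODE M21 gave symbols, positions and exon lengths for 51661 of the 51763 gene IDs, and 22712 IDs had 0 counts in all libraries.

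Here, genes were filtered with filterByExpr of edgeR 4.0.16 (minimum count 10, minimum total 15), and 16919 were tested with TMM scaling and the quasi-likelihood test in R 4.3.3, in 1 fit of all 15 libraries without covariates. P-values were adjusted by Benjamini-Hochberg over all tested genes, with calls at an adjusted p under 0.05. Normalized counts, log2 fold changes without shrinkage, standard errors and 95% intervals came from DESeq2 1.42.0. The study's own cut-off was on fold change. The test was run on simulated counts beforehand. Libraries that share a replicate number did not deviate together (24 pairs), so no block was used. No pair of libraries agreed within counting noise.

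The 8 genes and the lists were chosen with earlier results of these data known. Every member is named in each condition. From each pathway list and each of dsHMGB1, LPS and LPS/IFNγ against PBS, the 2 largest rises and the 2 largest falls were named among the called genes that reached 100 normalized counts on average in one of the groups. *Fst*, *Ski* and other genes named so are also given in the remaining conditions, and *Col1a1* and *Acta2* were named after their values were seen. Promoter windows came from RefSeq (GRCm38.p6). One gene of the target list is counted but not reported here.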

Additional observations from a re-analysis of the deposited data

How the results depend on the processing

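Other settings were RLE scaling, the DESeq2 Wald test, no filter, a filter of 1 CPM in 3 libraries, protein-coding genes only, fits of the 2 groups compared alone, a replicate block, edgeR's own fold changes and each library left out. Leaving out PBS replicate 3 in comparisons without PBS, and edgeR's fold changes, were chosen after seeing the data. Of the counts of called genes, 185 stayed within 1.5 times the reported count and 31 did not. Of the values of single members, 839 kept direction and call, 35 lost the call, 30 gained one and 24 changed direction. Depth limits *Inhba* in PBS and frHMGB1, with 582 and 324 counts over 3 libraries, and *Smad7*, with 309 in LPS. *Smad3* was also low in LPS, with 590.

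The 1 member called in dsHMGB1 against LPS/IFNγ became 2 (*Skil* was added) with RLE (33.4% of all genes called) or DESeq2 (38%). It also became 2 with the 1 CPM filter (41.8%) or protein-coding genes alone (40.6%). It became 4 with the 2 groups alone, where the share of all genes called went from 33.2% to 55.4%. With the 2 groups alone, 2 members were called in dsHMGB1 against PBS (29.9% of all genes, from 47.4%) and 2 in LPS (49.2%, from 62.9%). In LPS/IFNγ against LPS 5 members and 45 pathway genes were called with the 2 groups alone (61.1% of all genes), and 1 and 26 as reported (25.7%). The pathway genes called in frHMGB1 against PBS, 5 as reported, were 8 with DESeq2 (10.4% of all genes), 0 with protein-coding genes alone (0.537%) and 0 with the 2 groups alone (1.27%) in edgeR (14 had an unadjusted p under 0.05 as reported). With protein-coding genes alone, the median log2 fold change over PBS was -0.11 both in dsHMGB1 and in LPS/IFNγ and -0.13 in LPS. Over all genes it was -0.10, -0.12 and -0.21. Protein-coding genes alone also turned *Inhba* in LPS/IFNγ against LPS to 0.016. The cause of these changes was not tested.

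*Tgfb1* in dsHMGB1 against PBS, called at an adjusted p of 0.0420 by edgeR, lost its call with RLE (0.0658), the 1 CPM filter (0.0839), protein-coding genes alone (0.0703) and the 2 groups alone (0.277). *Smad7* in dsHMGB1 lost its call with no filter (0.0609) and the 2 groups alone (0.128), as did *Smad3* in LPS (0.0676 and 0.218). The 2 groups alone also ended the calls of *Tgfbr1* in LPS (0.217), *Smad7* in LPS (0.0600) and *Tgfb1* in LPS/IFNγ (0.0737), and no filter that of *Smad3* in dsHMGB1 against frHMGB1 (0.0543).

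Replicate numbers did not pair the samples: deviations from the group means correlated between -0.38 and 0.37 over 24 pairs, with 1 pair over 0.1. With a replicate block, *Tgfb1* in dsHMGB1 (adjusted p = 0.0505) and *Tgfbr1* in LPS (0.0671) lost their calls, *Tgfbr1* in dsHMGB1 turned to 0.048 and *Tgfbr2* in LPS/IFNγ to 0.00060. The members called became 3 in dsHMGB1 (45% of all genes) and 4 in LPS (61.1%), and the block changed no other call of a member.

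With 1 library left out at a time, the members called against PBS ranged from 0 to 1 in frHMGB1 (4.81% to 17.5% of all genes) and 2 to 7 in dsHMGB1 (38.8% to 58.8%). They ranged from 3 to 6 in LPS (54.9% to 71.2%) and 4 to 7 in LPS/IFNγ (53.1% to 67.7%). For dsHMGB1 they ranged from 1 to 3 against LPS (19.6% to 48.8%) and 1 to 4 against LPS/IFNγ (26.3% to 53.3%). For LPS/IFNγ against LPS the range was 1 to 3 (19.1% to 49.4%). The pathway genes called ranged from 1 to 16 in frHMGB1 against PBS, 19 to 38 for dsHMGB1 against LPS and 23 to 42 for LPS/IFNγ against LPS. The highest value of each came without PBS replicate 3. Directions turned only for members without a call in the comparison: *Tgfbr1* ranged from -0.49 to 0.32 in dsHMGB1 and -0.14 to 0.67 in frHMGB1, and *Tgfbr2* from -0.47 to 0.061 in dsHMGB1, -0.48 to 0.062 in LPS, -0.36 to 0.19 in LPS/IFNγ, -0.088 to 0.45 in frHMGB1 and -0.060 to 0.11 for dsHMGB1 against LPS. In frHMGB1, *Inhba* ranged from -0.55 to 0.15, *Smad3* from -0.0088 to 0.48 and *Smad7* from -0.050 to 0.26. *Smad3* ranged from -0.015 to 0.32 for dsHMGB1 against LPS, and *Tgfb1* from -0.16 to 0.043 in LPS. *Tgfbi*, which has no test, ranged from -0.065 to 0.11 in LPS.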
